A study of Mus musculus with 8 samples.

Results

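The genes described here are the transcriptional coactivators YAP and TAZ (Yap1 and Wwtr1), the DNA-binding TEAD factors Tead1 and Tead3, the target genes Ctgf, Cyr61, Ankrd1 and Amotl2, and the kinases Lats1 and Lats2. These 10 genes, of the 41457 genes in the deposited tables, were chosen by name for their place in the Hippo pathway, with earlier results of these data known. They were measured in keratinocytes (KCs), the epithelial cells of the epidermis, by sequencing of poly(A) RNA. The KCs were prepared from tails of adult C57BL/6 mice, carried the Wildtype genotype and were left untreated. They grew in serum-free KC medium with a low calcium concentration and were split when nearly confluent. One group was cultured for 1 week (4 samples) and the other for 3 weeks (4 samples), and the labels number the samples of each group as replicates 1 to 4. The labels do not tie samples to single animals, so p-values measure the spread between these samples. The study compared both times because initial assays had varied widely between preparations of tail KCs.

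In the Hippo pathway, the kinases MST1 and MST2 (genes Stk4 and Stk3) activate LATS1 and LATS2, and these phosphorylate YAP and TAZ, which then stay in the cytoplasm or are degraded. Unphosphorylated YAP and TAZ enter the nucleus, bind TEAD factors and switch on genes such as Ctgf, Cyr61 and Ankrd1. Spread cells with high tension in the actin cytoskeleton keep YAP and TAZ nuclear, dense cultures keep them out, and in the epidermis their activity is tied to basal KCs and wound repair. RNA levels show neither the phosphorylation nor the place of these proteins.

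TEAD factors bind the letters CATTCC, which read GGAATG on the other strand, and the stretches that hold these letters just before the members' start sites are shown for orientation. Of the 10 members, 8 had an entry in the RefSeq promoter table (build GRCm38.p6), and Tead1 and Ctgf had none. In the 250 bases before a RefSeq start, 6 of these 8 members held CATTCC on either strand in at least 1 window, and Lats1 and Lats2 did not. Of all 27025 genes in that table, 14.4% held it in at least 1 window, and of all 32851 windows 12.6% did. The window of Ankrd1 (chr19:36119845-36120094, minus strand) held it 210 and 123 bases before the start, and that of Cyr61 (chr3:145649986-145650235, minus strand) 103 bases before it. Both are printed 5′ to 3′ on the strand of the gene, with the motif in capitals.
Ankrd1: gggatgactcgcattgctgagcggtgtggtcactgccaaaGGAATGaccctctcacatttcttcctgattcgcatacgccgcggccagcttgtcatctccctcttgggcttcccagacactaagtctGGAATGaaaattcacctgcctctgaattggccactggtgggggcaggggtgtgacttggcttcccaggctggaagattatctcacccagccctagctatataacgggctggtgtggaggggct
Cyr61: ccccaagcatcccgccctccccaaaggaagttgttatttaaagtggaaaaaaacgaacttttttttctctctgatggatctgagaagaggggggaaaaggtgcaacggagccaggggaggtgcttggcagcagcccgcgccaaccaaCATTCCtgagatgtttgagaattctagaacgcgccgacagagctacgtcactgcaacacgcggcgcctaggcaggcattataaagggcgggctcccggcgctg
For Amotl2 (chr9:102717729-102717754, plus strand), Yap1 (chr9:8004722-8004747, minus strand) and Wwtr1 (chr3:57576031-57576056, minus strand) the 26 bases around the motif are given in the same way. The Amotl2 motif lay 65 bases before a RefSeq start that is inside the deposited gene.
Amotl2: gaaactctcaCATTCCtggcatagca
Yap1: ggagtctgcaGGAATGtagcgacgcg
Wwtr1: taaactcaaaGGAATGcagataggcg
A match of letters is not a measured binding site, and no binding was measured in these samples.

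The libraries held between 13896807 and 20026084 exon reads per sample. Of 12590 genes that passed the filter on low counts, 32.8% were called (15.7% higher and 17% lower after 3 weeks), which means a Benjamini-Hochberg adjusted p below 0.05 from the quasi-likelihood test of edgeR. Changes are given as log2 changes, 3 weeks over 1 week, from that fit. The share of these calls that were higher was 48.0%, but 31.4% when scaled by library size alone and 29.9% with limma on log2(RPKM + 0.1). Of 9 KC markers all were detected, with summed RPKM (reads per exon length and sequencing depth) of 12528 to 14786 at 1 week and 7538 to 8702 at 3 weeks, while summed fibroblast markers reached at most 5.15 RPKM and endothelial markers 0.559 RPKM. Summed immune markers stayed between 1.22 and 4.04 RPKM, with Cd207 at 0 in all samples, and melanocyte markers lay between 3.54 and 21.4 RPKM at 1 week and between 1.64 and 5.94 RPKM at 3 weeks. At 3 weeks, 2 libraries stood apart by gene length, measured relative to the mean of the samples of the same time. Genes with exons over 6000 bases lay 0.59 (log2) below those under 2000 bases in replicate 3 and 0.44 above them in replicate 4. In the other 6 samples the difference of long minus short genes ranged from -0.22 to 0.23. A length trend between the 2 times does not enter these values. The exons of 6 members (Yap1, Tead1, Tead3, Amotl2, Lats1 and Lats2) exceed 6000 bases. Of the 4 samples at 3 weeks, replicate 3 gave the lowest RPKM for all 6 of them and replicate 4 the highest for 5 of them. Calls that change without both libraries are named beside their gene.

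After 3 weeks of culture, KCs held more RNA of the target genes Ctgf (4.44-fold), Cyr61 (1.96-fold) and Ankrd1 (9.26-fold), and smaller rises passed the test for Wwtr1, Tead3 and Lats2. Yap1, Tead1, Amotl2 and Lats1 did not pass, and no member was lower. In all, 6 of the 10 members were called (6 higher and 0 lower), beside 32.8% of all tested genes called in either direction and 15.7% called higher. None was lower by DESeq2 or at an unadjusted p below 0.05 in edgeR either (0 in both). Their median log2 change was 0.68, against 0.03 over all tested genes, and on the log2(RPKM + 0.1) scale the medians were 0.48 and -0.16. RPKM values of the 2 times did not overlap for 2 members, Ctgf and Ankrd1, while 37% of all tested genes were without overlap. The count of called members depended on single libraries. It fell to 2 without replicate 1 of 1 week, to 3 without replicate 3 or 4 of 1 week or replicate 1 or 2 of 3 weeks, and rose to 8 without replicate 3 of 3 weeks. In bulk RNA, more cells that express a gene and more of its RNA per cell cannot be told apart.

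**Figure D1:**
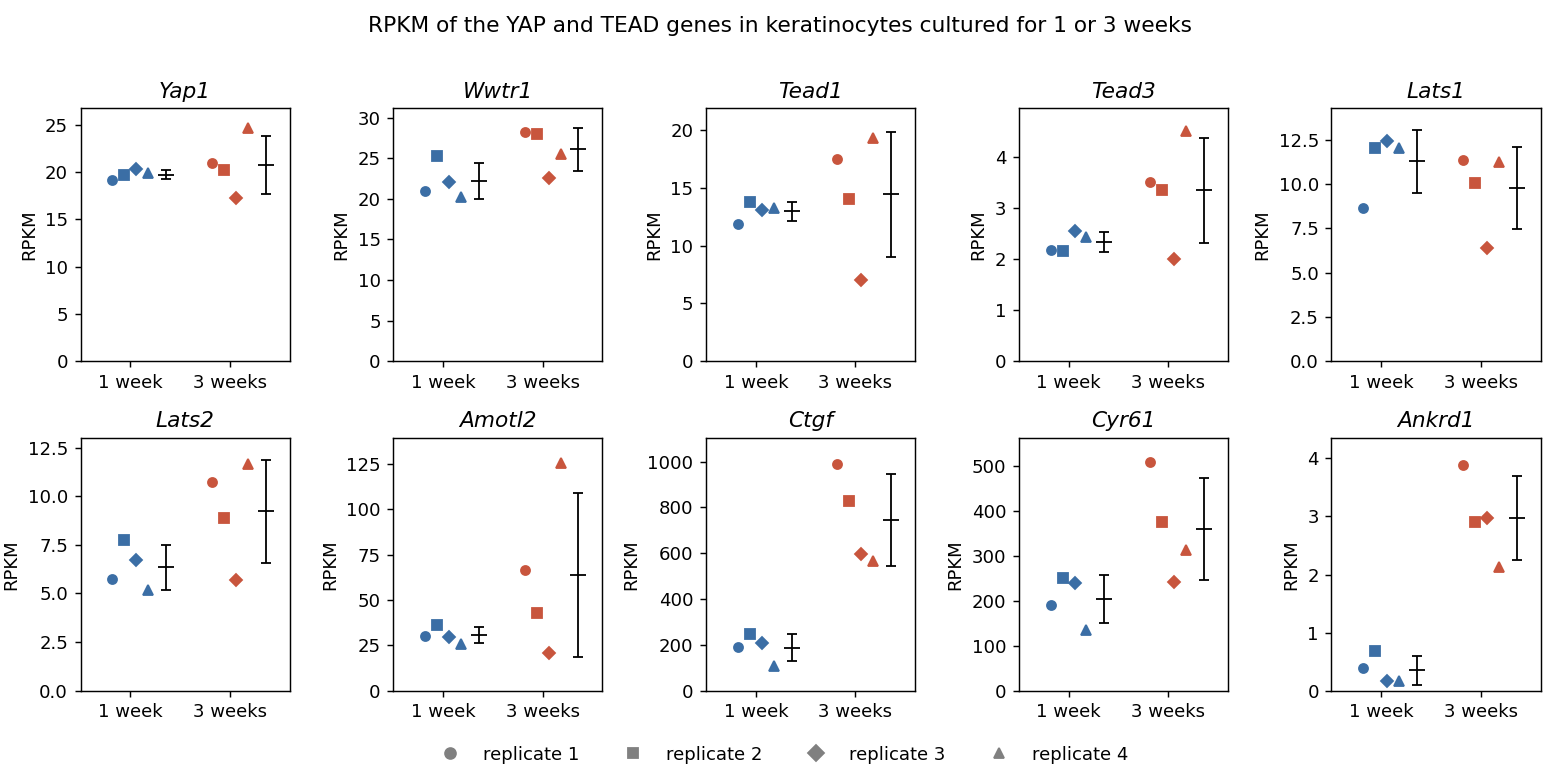
RPKM (linear axes from 0) of the 10 members in every sample, blue for 1 week and red for 3 weeks. Symbols mark replicate numbers, and the bars give mean ± SD (n = 4). Ctgf and Ankrd1 are the 2 members without overlap, and the diamond at 3 weeks (replicate 3) is the lowest of its group in 8 panels.

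The coactivators were expressed at similar levels, and only Wwtr1 passed the test. Yap1 (chr9:7931999-8004596) measured 19.2, 19.7, 20.3 and 19.9 RPKM in replicates 1 to 4 at 1 week and 21.0, 20.2, 17.2 and 24.7 RPKM at 3 weeks. The 1-week samples lay within the range of the 3-week samples, and Yap1 had the smallest relative spread of the members at 1 week (coefficient of variation 2.40%). Its log2 change was 0.23 ± 0.109 (SE), with an adjusted p of 0.137 (edgeR). Wwtr1 (chr3:57455649-57575910) measured 21.0, 25.3, 22.1 and 20.2 RPKM at 1 week and 28.2, 28.0, 22.5 and 25.5 RPKM at 3 weeks. The groups overlapped in RPKM, since replicate 3 of 3 weeks lay below replicate 2 of 1 week. Its log2 change was 0.40 ± 0.109 (adjusted p = 0.0221, edgeR), a rise of 1.32-fold. This call was lost without replicate 1, 3 or 4 of 1 week or replicate 1 or 2 of 3 weeks (adjusted p between 0.0586 and 0.0800) and in a fit with a shared table number as a block (0.45, adjusted p = 0.0757), with a positive sign each time. That number is carried by the name of each deposited table, 3 numbers occur at both times (6 samples), and the labels do not explain it, so whether it marks a shared preparation is not stated. The sum of both was 41.9 ± 2.30 RPKM (SD, n = 4) at 1 week and 46.9 ± 4.81 RPKM at 3 weeks. Yap1 made up 47.2% ± 2.46 of it at 1 week and 44.3% ± 3.34 at 3 weeks (two-sided exact permutation test over 70 arrangements, p = 0.229, adjusted over 6 shares 0.343).

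Among the TEAD factors, which bring YAP and TAZ to DNA, Tead3 rose while Tead4, which is no member, fell. Tead1 (chr7:112679318-112906807) measured 11.8, 13.8, 13.1 and 13.2 RPKM at 1 week and 17.5, 14.0, 7.05 and 19.3 RPKM at 3 weeks. Replicates 1, 2 and 4 of 3 weeks lay above all 1-week samples and replicate 3 lay below them, and the log2 change was 0.30 ± 0.237 (adjusted p = 0.367, edgeR). Without that replicate it was 0.48 (adjusted p = 0.0218), and without replicates 3 and 4 it was 0.41 (adjusted p = 0.0323). Without replicate 4 of 3 weeks alone it was 0.15 (adjusted p = 0.651, edgeR). With a correction for gene length it was 0.12 (adjusted p = 0.473, edgeR), so the Tead1 result depended on these libraries. Tead3 (chr17:28331671-28350817) had the lowest mean of the TEAD genes at both times, with 2.18, 2.15, 2.54 and 2.43 RPKM at 1 week and 3.51, 3.34, 1.99 and 4.51 RPKM at 3 weeks. Again 3 of the 4 samples at 3 weeks were above every 1-week sample. The log2 change of Tead3 was 0.67 ± 0.199 (adjusted p = 0.0306, edgeR), a rise of 1.59-fold. The call was lost without any 1 of the 1-week samples or without replicate 1 or 2 of 3 weeks (adjusted p between 0.0540 and 0.0992).

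Tead4 and Tead2 bind the same letters, so their levels are needed to describe the TEAD genes together. Tead4 measured 8.44, 9.61, 10.03 and 10.9 RPKM at 1 week and 5.10, 5.04, 2.62 and 3.78 RPKM at 3 weeks. All 3-week samples were below all 1-week samples, with a log2 change of -1.08 ± 0.191 (adjusted p = 0.00306, edgeR). Tead2 measured between 7.17 and 10.5 RPKM at 1 week and 12.6, 12.0, 14.9 and 5.53 RPKM at 3 weeks, with a log2 change of 0.49 ± 0.30 (adjusted p = 0.238, edgeR). Without replicate 4 of 3 weeks, the low sample, it was 0.73 (adjusted p = 0.0129), without replicate 3, the high sample, 0.24 (adjusted p = 0.530), and without both 0.56 (adjusted p = 0.0299). Summed over the 4 genes, TEAD RNA was 34.1 ± 0.964 RPKM (SD, n = 4) at 1 week and 33.2 ± 4.99 RPKM at 3 weeks.

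Shares of this sum do not depend on the scaling of a library. Tead4 made up 28.5% ± 2.83 (SD, n = 4) at 1 week and 12.3% ± 2.09 at 3 weeks, and Tead3 6.82% ± 0.559 and 9.97% ± 2.60. For both the groups did not overlap, which gave the smallest p-value that the exact permutation test with 4 against 4 samples can reach (p = 0.0286, adjusted over 6 shares 0.0571), so neither share passed after adjustment. Tead1 made up 38.0% ± 1.61 at 1 week and 42.7% ± 13.1 at 3 weeks (exact permutation p = 0.600, adjusted 0.600). Tead2 made up 26.6% ± 4.35 and 35.0% ± 16.2 (exact permutation p = 0.400, adjusted 0.480). The wide spread at 3 weeks came from replicate 3, with 26.5% Tead1 and 56.1% Tead2, and replicate 4, with 58.3% Tead1 and 16.7% Tead2. Tead1 and Tead2 differ in exon length (13570 and 4788 bases), and these are the libraries that stood apart by gene length. Whether gene length accounts for the split between Tead1 and Tead2 was not tested.

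**Figure D2:**
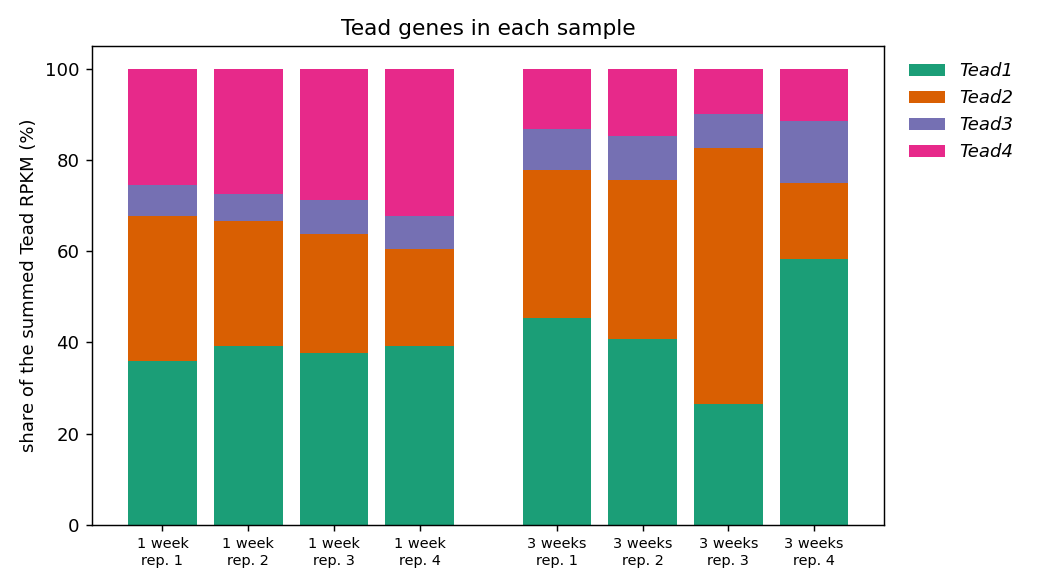
Share of Tead1 to Tead4 in their summed RPKM (%, bars stacked to 100) in each of the 8 samples. The Tead4 part takes 25.6% to 32.3% at 1 week and 9.86% to 14.7% at 3 weeks, while the split between Tead1 and Tead2 varies widely among the 3-week samples.

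The secreted matricellular proteins encoded by Ctgf (Ccn2) and Cyr61 (Ccn1), which bind integrins and growth factors, are widely used readouts of YAP and TEAD. Ctgf (chr10:24595442-24598683) measured 189, 247, 207 and 106 RPKM at 1 week and 990.2, 829, 596 and 564 RPKM at 3 weeks. The lowest 3-week sample exceeded the highest 1-week sample, and the mean went from 188 ± 59.2 to 745 ± 202 RPKM (SD, n = 4). The log2 change of Ctgf was 2.15 ± 0.286 (adjusted p = 0.000872, edgeR), and it passed the test under all 21 alternatives, between 1.95 and 2.41. About 66.0% of the Ctgf reads were counted as unique. The reads of its overlapping antisense gene Gm15270 cannot be told apart from its own if the counting ignored the strand.

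Cyr61 (chr3:145646976-145649981) measured 191, 250.4, 240.2 and 135 RPKM at 1 week and 508, 376, 241 and 314 RPKM at 3 weeks. Only replicate 3 of 3 weeks lay within the 1-week range. The log2 change of Cyr61 was 0.97 ± 0.249 (adjusted p = 0.0165, edgeR), and without replicate 1 of 1 week it was 0.93 (adjusted p = 0.0553). Cyr61 was the highest member at 1 week, above Ctgf in 4 of 4 samples, and Ctgf was the highest at 3 weeks, above Cyr61 in 4 of 4 samples.

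Ankrd1, which encodes a nuclear ankyrin repeat cofactor also known from the sarcomere of strained muscle, had the largest change of the members from the lowest level. It measured 0.387, 0.688, 0.158 and 0.161 RPKM at 1 week, which rested on 13, 25, 4 and 5 reads. At 3 weeks it measured 3.89, 2.90, 2.97 and 2.12 RPKM, from 128, 84, 86 and 55 reads. The groups were far apart, and every library was above the level of 3 reads (0.0849 to 0.122 RPKM). The log2 change of Ankrd1 (chr19:36111965-36119844) was 3.21 ± 0.463 (adjusted p = 0.00126, edgeR), and it was called in each of the 20 alternatives that gave it a value. On the log2(RPKM + 1) scale, which compresses low genes, the change was 1.56. At 3 weeks Ankrd1 reached the level of Tead3, which was higher in 2 of the 4 samples.

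Amotl2 and the kinase gene Lats2 belong to the feedback arm of the pathway, as YAP raises their transcription and their proteins restrain YAP. Amotl2 (chr9:102716672-102733418), a scaffold that holds YAP at cell junctions and actin, measured 30.2, 36.4, 29.8 and 25.6 RPKM at 1 week and 66.7, 42.6, 20.6 and 125 RPKM at 3 weeks. Its 3-week samples spread 6.08-fold, the most of all members, with replicate 3 below and the others above every 1-week sample. The log2 change was 1.19 ± 0.429 and did not pass the test (adjusted p = 0.0601, edgeR). It passed without replicate 3 of 3 weeks (1.46, adjusted p = 0.0102), without replicates 3 and 4 (0.97, adjusted p = 0.00919), with a correction for gene length (1.17, adjusted p = 0.0476) and with the table number as a block (1.39, adjusted p = 0.0335). It did not pass without replicate 4 of 3 weeks, the high sample (0.66, adjusted p = 0.122), or with the replicate number as a block (0.94, adjusted p = 0.153).

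Lats1 (chr10:7681214-7716460) measured 8.63, 12.0, 12.4 and 12.0 RPKM at 1 week and 11.4, 10.1, 6.42 and 11.2 RPKM at 3 weeks. It was the only member without a positive change, with a log2 change of -0.06 ± 0.172 (adjusted p = 0.833, edgeR) that turned to 0.045 without replicate 3 of 3 weeks. Lats2 (chr14:57689662-57758388) measured 5.73, 7.75, 6.72 and 5.16 RPKM at 1 week and 10.7, 8.86, 5.67 and 11.6 RPKM at 3 weeks. Replicate 3 of 3 weeks lay within the 1-week range and the other samples above it. The log2 change of Lats2 was 0.69 ± 0.201 (adjusted p = 0.0280, edgeR), a rise of 1.61-fold. It was lost without replicate 1, 3 or 4 of 1 week or replicate 1 or 2 of 3 weeks (adjusted p between 0.0528 and 0.0974). Only 2.45% of the Lats2 reads were counted as unique, 11 to 38 per sample, and a gene on the same strand (Gm49361) overlaps it, so the level of Lats2 is uncertain. On unique reads the change was 0.73 (adjusted p = 0.150). Lats1 made up 64.0% ± 4.55 (SD, n = 4) of the summed LATS RPKM at 1 week and 51.7% ± 1.90 at 3 weeks, without overlap (exact permutation p = 0.0286, adjusted over 6 shares 0.0571). On unique reads the Lats1 share was 98.7% and 97.7%, so its size rests on the reads of Lats2 that were not counted as unique.

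In the order of levels per exon length, Cyr61 and Ctgf led at both times, followed by Amotl2, Wwtr1, Yap1, Tead1, Lats1, Lats2, Tead3 and Ankrd1. At 1 week each member was above the next in 4 of 4 samples, although the ranges overlapped between Cyr61 and Ctgf, between Wwtr1 and Yap1 and between Tead1 and Lats1. At 3 weeks the order stayed the same except at the top. Neighbours from Amotl2 down to Lats2, and Tead3 with Ankrd1, then overlapped in range, so only Ctgf, Cyr61 and the step from Lats2 to Tead3 were set apart from the next level. Between samples with the same table number (46, 49 and 90), whose meaning the labels do not give, the log2 ratio of normalized reads was positive in 3 of 3 pairs for 9 members. Lats1 gave 0.49, -0.18 and -0.0034. Ctgf gave 2.48, 2.13 and 2.50, and Ankrd1 3.22, 3.83 and 3.35. Amotl2 varied more, with 1.24, 0.64 and 2.39.

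Reads on introns, which stem mostly from unspliced RNA, gave a second readout with few reads. Of 3996 genes with enough intron reads, 20.6% were called. Of the 10 members 7 could be tested, and Cyr61 and Amotl2 were called higher after 3 weeks. Intron reads of Cyr61 numbered 11, 7, 6 and 8 at 1 week and 38, 25, 24 and 45 at 3 weeks, a log2 change of 2.30 ± 0.367 (adjusted p = 0.00135, edgeR). All 3-week samples were above all 1-week samples, also when scaled to the exon reads of each sample. Those of Amotl2 numbered 4, 9, 10 and 10 at 1 week and 62, 17, 17 and 119 at 3 weeks, a log2 change of 2.95 ± 0.613 (adjusted p = 0.00592, edgeR). Here the groups did not overlap either, and replicate 3 was above the 1-week samples in introns while it was below them in exons. Lats2 had 154 intron reads in all at 1 week and 244 at 3 weeks (adjusted p = 0.0672), Wwtr1 68 and 106 (adjusted p = 0.120), Tead1 144 and 177 (adjusted p = 0.167), Yap1 52 and 54 (adjusted p = 0.715) and Lats1 49 and 42 (adjusted p = 0.936), all by edgeR. None of these 5 passed. Ctgf (15 and 58 intron reads), Tead3 (12 and 23) and Ankrd1 (1 and 5) did not reach the minimum for the test. Without that minimum the log2 change was 2.17 for Ctgf, which passed (adjusted p = 0.00387, edgeR). The Ctgf groups overlapped, with 7 intron reads in replicate 4 of 1 week and 6 in replicate 3 of 3 weeks. Tead3 (1.23, adjusted p = 0.303, edgeR) and Ankrd1 (adjusted p = 0.385, edgeR) did not pass.

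**Figure D3:**
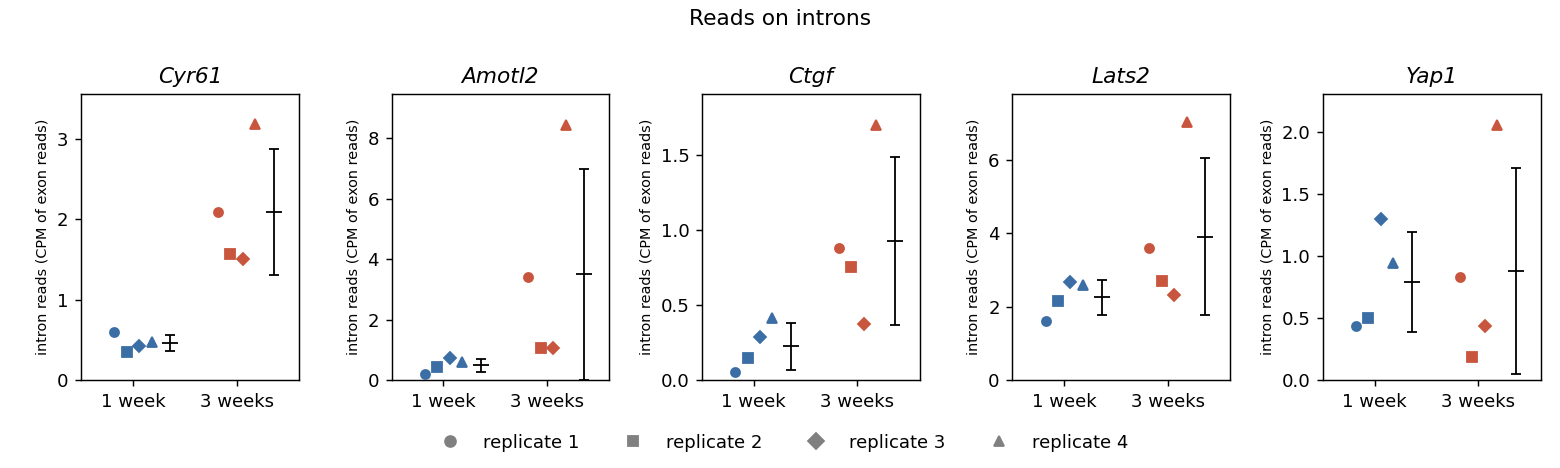
Intron reads in CPM, scaled to the exon reads of each sample (linear axes from 0), of 5 members, with mean ± SD (n = 4). The 3-week samples of Cyr61 (1.51 to 3.19) and Amotl2 (1.06 to 8.44) all lie above their 1-week samples (0.350 to 0.595 and 0.216 to 0.720). The ranges of Ctgf, Lats2 and Yap1 overlap between the times.

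Of the other factors that join the complex, 4 of 6 could be tested, and Tead4 was the only one called. The cofactor genes Vgll1 and Vgll2 had no reads in any sample. Of 21 upstream regulators 20 were tested, 5 were higher and 0 lower in edgeR, with a median log2 change of 0.34 (1 was lower at an unadjusted p below 0.05, and 0 by DESeq2). The called share of 25.0% stands beside 32.8% of all tested genes called in either direction and 15.7% called higher. The largest change was that of Amot, which encodes angiomotin, the founder of the family of Amotl2. It measured 0.831, 1.03, 0.456 and 0.459 RPKM at 1 week and 12.2, 7.60, 6.12 and 7.49 RPKM at 3 weeks, a log2 change of 3.74 ± 0.331 (adjusted p = 0.00024, edgeR). Its groups did not overlap, and the rise was 13.3-fold. The kinase genes Stk4 (log2 change 0.37, adjusted p = 0.0384) and Taok3 (1.24, adjusted p = 0.0330) were also higher in edgeR. So were the kinase cofactor gene Mob1b (0.56, adjusted p = 0.00491) and the scaffold gene Wwc2 (0.66, adjusted p = 0.0483). Stk4 and Taok3 lost the call on leaving out any 1 of 6 samples and Wwc2 any 1 of 7, with adjusted p up to 0.146, 0.102 and 0.156. Mob1b kept it in all 8 omissions, but its exons span 15033 bases. With a correction for gene length its log2 change was 0.47 and no longer called (edgeR). Amot, Stk4, Taok3 and Wwc2 stayed called with that correction.

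Of 17 other known target genes 16 were tested, 4 were higher and 0 lower in edgeR, with a median log2 change of 0.41 (2 were lower at an unadjusted p below 0.05, and 2 by DESeq2). This called share of 25.0%, all of it higher, stands beside 32.8% of all tested genes called in either direction and 15.7% called higher. F3, which encodes tissue factor, measured between 85.8 and 164 RPKM at 1 week and 549, 467, 286 and 162 RPKM at 3 weeks, with a log2 change of 1.70 ± 0.367 (adjusted p = 0.00764, edgeR). It was called under all 21 alternatives. Tgfb2, which encodes a growth factor of the TGF-beta family, measured between 0.274 and 0.738 RPKM at 1 week and 1.25, 0.767, 0.904 and 5.96 RPKM at 3 weeks (log2 change 2.37 ± 0.683, adjusted p = 0.0270, edgeR). Without replicate 4 of 3 weeks, the high sample, it was 1.24, and without replicates 3 and 4 it was 1.23 and not called (adjusted p = 0.0536). The kinase gene Nuak2 (log2 change 0.43, adjusted p = 0.0250) and Ccdc80 (1.32, adjusted p = 0.0454, from 8 to 47 reads) were the others in edgeR. Tgfb2 lost its call in 3 of 8 omissions of a sample, and Nuak2 and Ccdc80 in 5 of 8. Ccdc80 was not called without replicates 3 and 4 of 3 weeks either (1.04, adjusted p = 0.104). With the shared table number as a block, Tgfb2, Nuak2, Ccdc80, Stk4 and Mob1b kept a positive sign but were not called (adjusted p = 0.0502, 0.0758, 0.0523, 0.0915 and 0.0561, edgeR). Changes below 0 were seen for Axl, Fjx1, Gadd45a and Dock5, with values of -0.45, -0.49, -0.47 and -0.24, none past the test (adjusted p = 0.0576, 0.0601, 0.332 and 0.666, edgeR). Axl measured 152 to 224 RPKM at 1 week and 99.8 to 136 RPKM at 3 weeks, and Fjx1 9.31 to 10.8 and 4.78 to 7.47 RPKM. For both the times did not overlap, as for 37% of all tested genes, while those of Gadd45a and Dock5 did. Over the 22 targets including Ctgf, Cyr61, Ankrd1, Amotl2 and Lats2, 8 of 21 tested genes were higher and 0 lower in edgeR. Here too 2 were lower at an unadjusted p below 0.05 and 2 by DESeq2. The called share was 38.1%, beside the same 32.8% in either direction and 15.7% higher over all tested genes. The called genes include the members Ctgf, Cyr61, Ankrd1 and Lats2, which were chosen with earlier results of these data known.

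**Figure D4:**
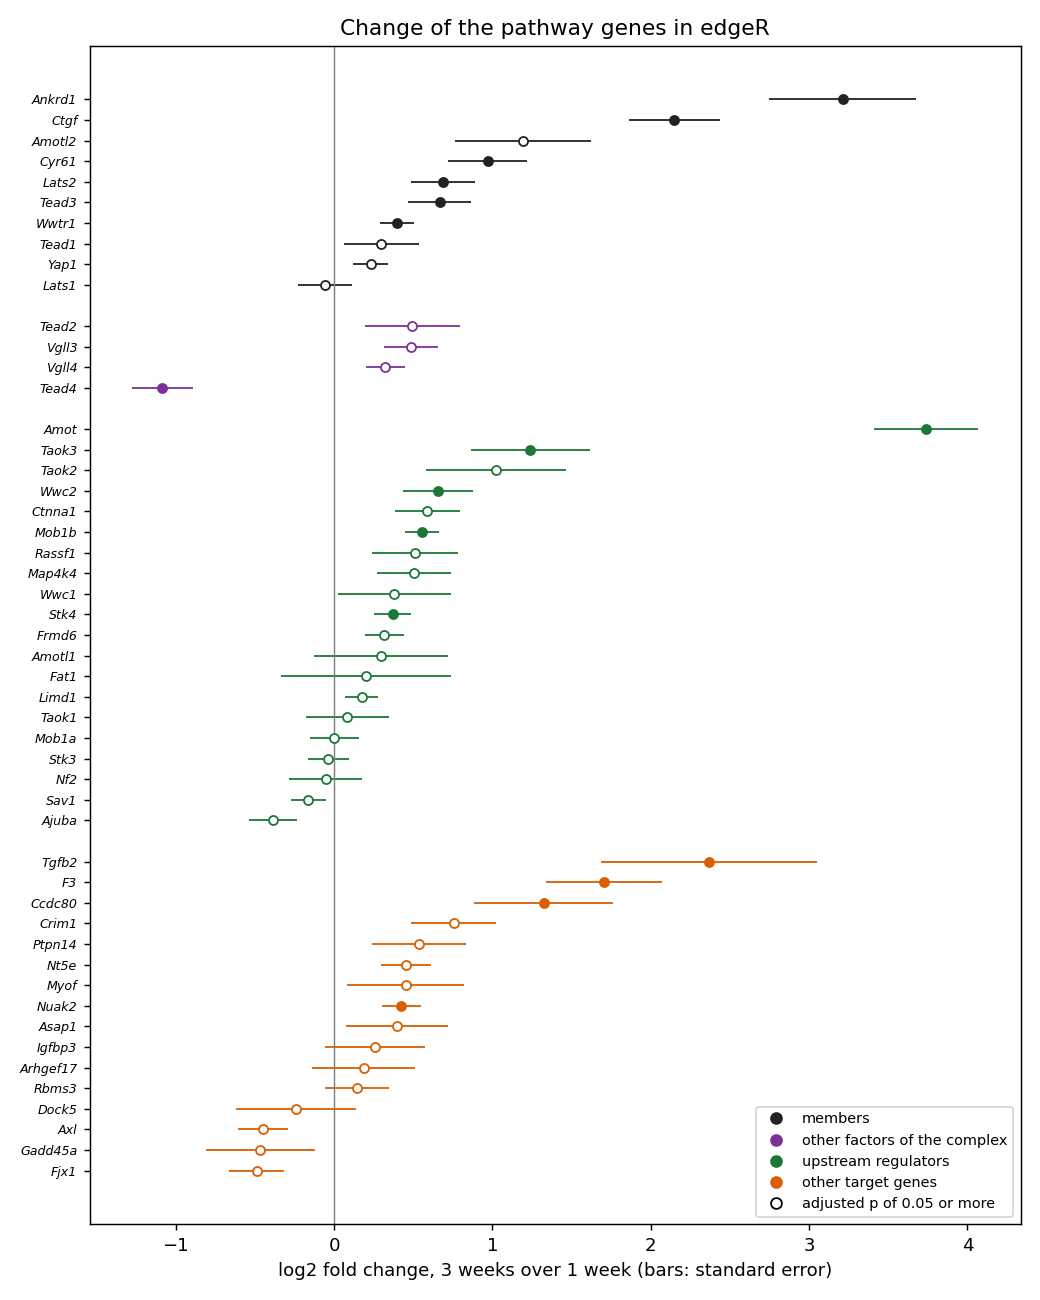
Log2 change (3 weeks over 1 week, edgeR, bars give the standard error) of the members and of 3 lists of pathway genes that could be tested. Filled points have an adjusted p-value under 0.05. Amot (3.74) and Ankrd1 (3.21) lie farthest to the right and Tead4 (-1.08) farthest to the left.

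The genes whose normalized log2 reads followed a member most closely over the 8 samples were found among 8527 genes whose mean reached 10 CPM. For Ctgf these were Cnn1, Tpm1 and Mcam (Pearson r = 0.995, 0.995 and 0.992, Spearman rho = 1.00, 0.952 and 0.976). Cnn1 (calponin) and Tpm1 (tropomyosin) encode actin-binding proteins and Mcam an adhesion molecule. Cnn1 measured 0.932 to 2.89 RPKM at 1 week and 11.1 to 30.0 RPKM at 3 weeks. Cyr61 was matched most closely by P3h1, Fgd3 and Pappa (r = 0.979, 0.977 and 0.974). Ankrd1 was matched by Rnf128, Cyld and Fgfrl1 (r = 0.993, 0.992 and 0.990). The points share their libraries and fall into 2 times, so that any gene that differs strongly between the times scores high, and the values are a description of the best matches among many. Since Cnn1 is also made by smooth muscle, muscle markers are given beside it. Summed over Myh11, Des, Actc1 and Myod1 they were at 0.151 to 0.268 RPKM at 1 week and 0.194 to 1.63 RPKM at 3 weeks, where Myh11 reached 1.21, 0.376, 0.0320 and 1.50 RPKM. Actc1 and Myod1 had at most 3 reads in any sample. The part of such cells in the level of Ctgf was not tested.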

How the data were processed

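Poly(A) RNA of KCs was sequenced as single reads of 59 bases. The authors aligned the reads to GRCm38 in the CLC Genomics Workbench (version 12) and deposited per gene the whole-number counts of total and unique exon reads and of intron reads, without normalization, together with RPKM and TPM values with decimal commas. Whether counting used the strand is not given in the sources used here.

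Exon counts were tested in edgeR 4.0.16 (R 4.3.3) with TMM, filterByExpr, glmQLFit and glmQLFTest over all genes and all 8 samples, without pairing as in the unpaired tests of the study, with Benjamini-Hochberg adjustment at 0.05. Standard errors came from the F statistics. Intron counts used the library sizes and factors of the exon counts. RPKM shares were compared by exact permutation (scipy 1.17.1, Python 3.11.15), and figures were drawn with matplotlib 3.10.9. On simulated counts of 12462 genes, 51% of 100 genes changed 2-fold and 98% of 100 changed 4-fold were recovered, with 11 false calls. The simulation held no gene-length trend and far fewer changed genes than were called here, so these rates need not hold for the real samples. Named genes are the 10 members, Tead2, Tead4, the called genes of 3 pathway lists and the 3 closest matches of Ctgf, Cyr61 and Ankrd1. The 4 listed targets with negative changes were named after their values were seen. Members and lists were chosen with earlier results of these data known.

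Replicates of a time differed by at least 15.4 in chi-square per degree of freedom, so none was counted as a copy. Deviations from the mean of each time correlated at -0.23, -0.15, -0.15 and 0.25 between samples with the same replicate number. Between samples with different replicate numbers they ranged from -0.29 to 0.42. These values cannot decide whether samples were paired. The names of the deposited tables also carry a number (at 1 week 46, 47, 49 and 90, at 3 weeks 46, 49, 57 and 90, in the order of the replicates), which the labels do not explain. The study states that both times came from the same batches, but whether this number marks them is not stated. Samples with the same table number correlated at -0.23, 0.20 and 0.25. Alternatives were DESeq2 1.42.0, upper-quartile factors, library size alone, no filter, a minimum of 10 reads per sample, counts of unique reads or of all reads on a gene, limma 3.58.1 on log2(RPKM + 0.1) or log2(RPKM + 1), both blocks, and each sample left out. The length correction and the fit without replicates 3 and 4 of 3 weeks were added after seeing the data.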

Additional observations from a re-analysis of the deposited data

Results flagged for a closer look

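In a group of 4 samples, 2 of 54 groups held a sample far from the others, where chance gives about 1 in 20 groups. Lats1 measured 8.63 RPKM in replicate 1 of 1 week, and the nearest of the other 3 samples measured 12.0 RPKM. Tgfb2 measured 5.96 RPKM in replicate 4 of 3 weeks, and the nearest of the others measured 1.25 RPKM. Replicate 4 of 3 weeks was also the highest of its group for Amotl2, Tead1, Tead3, Lats2 and Yap1.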

How the results depend on the processing

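Over 21 alternatives, Ctgf and Tead4 kept their direction and call in each, Ankrd1 in the 20 that gave it a value (it was removed by the minimum of 10 reads in every sample), Cyr61 in 19, and Wwtr1, Tead3 and Lats2 in 10 each. Yap1 was called in none and Amotl2 in 5. The count of called members was 3 with library size alone, 3 with no filter, 2 and 3 with limma on log2(RPKM + 0.1) and log2(RPKM + 1), and 2 to 8 over the omissions of a sample. The genes called higher, 1981 in all, were 1292 and 1252 with limma, and 1371 to 2284 over the omissions. Scaling by library size alone shifted the median of all genes to -0.13 (log2).

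The labels do not say that the replicate numbers pair samples, and samples 1 and 4 of both times share a table number while samples 2 and 3 do not. With the replicate block 1309 genes were higher and 3 members were called, with Wwtr1 at 0.40, Tead3 at 0.63 and Lats2 at 0.67 no longer past the threshold. With the shared table number as the block on 6 samples, 1316 genes were higher and 6 members were called. Wwtr1 was at 0.45 (not called), Amotl2 at 1.39 (called) and Lats1 turned to 0.075.

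Calls were lost under library size alone, no filter and limma with 0.1 and 1, in this order, by Wwtr1 (0.24, 0.33, 0.23 and 0.23), Tead3 (0.52, 0.61, 0.45 and 0.35) and Lats2 (0.54, 0.63, 0.50 and 0.45), by Lats2 on unique reads (0.73) and by Cyr61 in limma with 0.1 (0.80). Amotl2 was called with DESeq2 (1.21), with the length correction (1.17) and without replicates 3 and 4 of 3 weeks (0.97), where Tead1 was also called (0.41) and Lats1 turned to 0.055. The cause was not tested. Over the omissions of a sample, log2 fold changes ranged from 0.35 to 0.45 for Wwtr1, 0.15 to 0.48 for Tead1, 0.51 to 0.80 for Tead3, 0.77 to 1.07 for Cyr61, 0.66 to 1.46 for Amotl2, -0.18 to 0.045 for Lats1 and 0.58 to 0.81 for Lats2.

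Within table number 90, shares changed by 19.0 percentage points for Tead1, -4.60 for Tead2, 6.39 for Tead3, -20.8 for Tead4 and -20.9 for Lats1. Within number 46, Tead4 changed by -12.4 and Lats1 by -8.63, and within number 49 Yap1 by -5.94. For the 11 other pathway genes named, 156 of 230 values stayed on the same side of the threshold, 72 lost a call, 2 gained one and 0 reversed. With 4 samples per time, 2-fold changes can be missed, and low read numbers limit Ankrd1 and the introns.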
